A study of Mus musculus with 14 samples.

Results

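Glucose is imported, split into pyruvate and then either exported as lactate or passed to the mitochondria, and the 32 genes described here encode these steps and the pentose phosphate branch. All 32 were found by symbol among the 54532 lines of the deposited count table, and they are described by step: 2 glucose transporters, 3 hexokinases, 7 enzymes of upper glycolysis, 2 PFKFB regulators, 6 enzymes of lower glycolysis, 4 genes of lactate handling, 4 genes of pyruvate entry into mitochondria and 4 pentose phosphate enzymes. Bulk RNA was sequenced from bone marrow cells of C57BL/6 mice sorted as long-term haematopoietic stem cells (LT-HSC) or granulocyte-monocyte progenitors (GMP). The groups were AML1-ETO LT-HSC (genotype Runx1-Runx1t1, 3 libraries), control LT-HSC (WT, 4 libraries), AML1-ETO GMP (3 libraries) and control GMP (4 libraries). AML1-ETO, a leukaemia fusion protein, pairs the DNA-binding domain of RUNX1 with the corepressor RUNX1T1. It was switched on through Mx1-Cre, a recombinase under an interferon-responsive promoter that is active in many cell types besides blood stem cells, by intraperitoneal poly(I:C) at 5 mg/kg every other day in 4 doses. The labels list these injections for every sample, WT included, and do not say whether control mice carried Mx1-Cre. Whether each library came from its own mouse is not stated either, so the p-values measure only how these samples vary, which may be technical.

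Glycolysis turns glucose into pyruvate in the cytosol and yields ATP without oxygen, and the pentose phosphate pathway branches from its first intermediate to make NADPH and ribose for nucleotides. Lactate dehydrogenase and the monocarboxylate transporters regenerate NAD+ and export lactate, whereas pyruvate dehydrogenase, which is inhibited by its kinases, feeds pyruvate to the citric acid cycle. Quiescent blood stem cells are known for a low metabolic rate and a leaning on glycolysis, with HIF1A and pyruvate dehydrogenase kinases among the factors that keep it, and dividing progenitors for a higher use of both pathways.

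Promoter windows of 250 bases upstream of annotated transcription starts were read from RefSeq on GRCm38.p6 for 31 of the 32 genes, all but Slc2a3. Those of 4 members with some of the largest genotype differences are shown because the fusion keeps the DNA-binding part of RUNX1 and because HIF1A and MYC are textbook regulators of this pathway. Each reads 5′ to 3′ on the strand of the gene, for the first start listed. Capitals mark matches on either strand to TGTGGT, the core of a RUNX site, and to ACGTG or GCGTG, the core of a HIF site, and an E-box, CACGTG, is always also a match to ACGTG on both strands.
Slc16a1 (chr3:104638414-104638663, plus strand): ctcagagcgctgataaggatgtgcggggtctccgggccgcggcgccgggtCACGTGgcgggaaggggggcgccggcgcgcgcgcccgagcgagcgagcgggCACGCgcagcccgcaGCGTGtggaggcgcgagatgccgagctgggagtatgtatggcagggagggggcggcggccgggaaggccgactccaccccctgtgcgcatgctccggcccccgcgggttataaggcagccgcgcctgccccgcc
Slc16a3 (chr11:120948817-120949066, plus strand): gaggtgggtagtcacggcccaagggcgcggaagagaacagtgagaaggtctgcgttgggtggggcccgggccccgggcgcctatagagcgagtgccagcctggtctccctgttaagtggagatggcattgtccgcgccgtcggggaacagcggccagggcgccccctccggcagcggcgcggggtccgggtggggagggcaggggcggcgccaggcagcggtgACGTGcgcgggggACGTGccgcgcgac
Hk2 (chr6:82774455-82774704, minus strand): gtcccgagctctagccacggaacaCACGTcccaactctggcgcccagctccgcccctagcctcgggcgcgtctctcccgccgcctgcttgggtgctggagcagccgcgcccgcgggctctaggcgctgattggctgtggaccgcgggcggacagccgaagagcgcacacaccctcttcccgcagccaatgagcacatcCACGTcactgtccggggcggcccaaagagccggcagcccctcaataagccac
Ldhb (chr6:142507958-142508207, minus strand): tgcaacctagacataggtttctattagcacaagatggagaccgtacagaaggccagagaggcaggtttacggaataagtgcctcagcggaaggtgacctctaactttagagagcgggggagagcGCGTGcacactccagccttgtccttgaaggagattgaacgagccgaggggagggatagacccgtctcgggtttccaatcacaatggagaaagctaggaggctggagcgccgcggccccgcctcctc
The windows of Slc16a1, Slc16a3 and Hk2 each hold 2 matches to ACGTG, which in Slc16a1 are the 2 strands of 1 E-box beside 2 matches to GCGTG. The Ldhb window holds 1 match to GCGTG and none to ACGTG. Over the 46 windows of the 31 genes, ACGTG was present in 37.0% and GCGTG in 54.3%, against 16.6% and 28.2% of all 32851 windows in RefSeq. By gene, ACGTG was in windows of 14 and GCGTG in windows of 21 of the 31. Overlapping windows of Eno1, Aldoa and Pfkm count the same matches more than once. Both cores contain CG, and the windows compared were not matched for base composition, so these shares were not tested as an excess. TGTGGT was present in 15.2% of members' windows, against 14% of all windows, and it is not in any of the 4 windows shown. It is in windows of 7 of the 31 genes, namely Slc2a1, Hk1, Hk3, Pfkp, Aldoc, Pdk1 and Pdha1. Of these 7, only Pdk1 was called between genotypes (lower in AML1-ETO GMPs, below), and its second window holds no match. All these values are counts of letters in short windows and say nothing of binding.

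The libraries held 13210952 to 19403864 counts. Genes with a count numbered 16427 to 18106 in AML1-ETO LT-HSC libraries, against 12106 to 15329 in control LT-HSC libraries. They numbered 13473 to 14887 in AML1-ETO GMP libraries, against 18747 to 19508 in control GMP libraries. These numbers thus separated the genotypes in both cell types, in opposite directions, and their part in the values below was not tested. Levels are in CPM, that is counts scaled to a common library size with TMM factors. Runx1t1, whose reads report the fusion, had 85.6 to 164 CPM in LT-HSCs of AML1-ETO mice, against 0 to 18.2 in LT-HSCs of control mice, and 26.0 to 45.7 CPM in GMPs of AML1-ETO mice, against 1.69 to 2.74 in GMPs of control mice. The summed level of 10 LT-HSC markers was 785 to 1040 CPM in the AML1-ETO LT-HSCs, against 381 to 1370 CPM in the control LT-HSCs, and 37.2 to 358 CPM in the AML1-ETO GMPs, against 17.1 to 23.1 CPM in the control GMPs, with 358 in AML1-ETO GMP replicate 3. The summed level of 10 GMP markers was 1200 to 1450 CPM in the AML1-ETO LT-HSCs, against 170 to 389 CPM in the control LT-HSCs, and 21500 to 35400 CPM in the AML1-ETO GMPs, against 29000 to 33100 CPM in the control GMPs. Elane was at 0 in the AML1-ETO LT-HSCs, and Cebpe and Csf1r in the control LT-HSCs. Between genotypes in LT-HSCs, the test given below called 2 of the 10 LT-HSC markers lower in AML1-ETO mice and 0 higher. Over the 10, 5 log2 fold changes were above 0 and 5 below. Mecom had 4.07 to 16.6 CPM in AML1-ETO LT-HSCs, against 41.9 to 176 CPM in control LT-HSCs. Ly6a had 241 to 332 CPM, against 45.1 to 217 CPM. Of 9 GMP markers tested there, 5 were higher and 1 lower. Some libraries stand apart: AML1-ETO GMP replicate 1 held 3630 CPM of 9 neutrophil markers and 4980 CPM of 10 erythroid markers, AML1-ETO GMP replicate 3 held 1800 CPM of 6 megakaryocyte markers, and control LT-HSC replicate 2 held 77400 CPM of 10 B and plasma cell markers. In bulk samples, fewer cells of a type and less RNA per cell cannot be told apart.

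In LT-HSCs, AML1-ETO mice had more RNA for the glucose transporter Slc2a3 and less for the hexokinase Hk2, the lactate dehydrogenase subunit Ldhb and the monocarboxylate transporter Slc16a1. These were the members called, that is with an adjusted p under 0.05 in edgeR's quasi-likelihood test, with Benjamini-Hochberg adjusted values over the genes that passed the filter. Of 31 members tested, 1 was higher (3.23%, against 7.59% of all 14589 genes tested) and 3 were lower (9.68%, against 4.69% of all genes). The median log2 fold change was 0.01 over the members and 0.03 over all genes tested, and it stayed at 0.01 with Ldhb at its bound given below. The groups did not overlap for 12 of the 31 members (38.7%), 4 higher and 8 lower, against 28.5% of all genes tested. Over all genes 1107 were called higher and 684 lower, and with DESeq2 1322 and 1483 and with upper-quartile scaling 912 and 853. Eno2, the neuronal enolase gene, did not pass the filter on low counts and was above 0.5 CPM only in control LT-HSC replicates 1 and 2, at 15.3 and 11.8 CPM.

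Of the glucose transporters, Slc2a3 (GLUT3; chr6:122727809-122801640 on mm10, minus strand) had 451, 386 and 358 CPM in LT-HSCs of AML1-ETO mice, against 162, 138, 77.6 and 75.9 CPM in LT-HSCs of control mice. The 3 AML1-ETO libraries all exceeded the 4 controls. The log2 fold change was 1.91 ± 0.31 (SE; adjusted p = 0.00749), a 3.75-fold higher level, and the call held with each library left out in turn, at an adjusted p of up to 0.0445. Slc2a1 (GLUT1), the other broadly expressed glucose transporter, had 43.8 to 53.7 CPM in LT-HSCs of AML1-ETO mice, against 7.67 to 49.9 in LT-HSCs of control mice, so the groups overlapped and the test was not passed (0.87 ± 0.58, adjusted p = 0.417).

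Among the hexokinases, which trap glucose in the cell by phosphorylation, Hk2 (chr6:82725025-82774454, minus strand) had 42.5, 31.4 and 20.2 CPM in LT-HSCs of AML1-ETO mice, against 190.9, 76.2, 77.6 and 79.6 CPM in LT-HSCs of control mice. The groups stood apart, and control replicate 1 was more than double any other library. The log2 fold change was −1.67 ± 0.44 (adjusted p = 0.0436), a 3.17-fold lower level. This call was lost without AML1-ETO replicate 1, 2 or 3 (adjusted p = 0.0935, 0.163 and 0.146) and without control replicate 2 or 4 (0.0504 and 0.062). Hk1, the housekeeping isozyme, had 518 to 618 CPM in LT-HSCs of AML1-ETO mice, against 282 to 521 in LT-HSCs of control mice. Hk3, an isozyme of myeloid cells, had 129 to 171 CPM in LT-HSCs of AML1-ETO mice, against 0 to 105 in LT-HSCs of control mice. Its groups did not overlap, but the control libraries were so spread that the test was far from passed (1.51 ± 1.18, adjusted p = 0.514).

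The 7 upper glycolysis enzymes and the 2 PFKFB regulators gave no adjusted p under 0.05 in LT-HSCs. The nearest was Tpi1, triose phosphate isomerase, with 118 to 155 CPM in LT-HSCs of AML1-ETO mice, against 194 to 275 in LT-HSCs of control mice, without overlap (−0.65 ± 0.19, adjusted p = 0.0553). The log2 fold changes of Gpi1, the isomerase of glucose phosphate, of Pfkl, Pfkm and Pfkp, the subunits of the committing phosphofructokinase, and of the aldolase gene Aldoa lay between −0.24 and 0.15. Aldoc, the brain aldolase gene, stayed at or under 12.9 CPM in every library. Pfkfb3, which makes the activator of phosphofructokinase, had 81.2 to 108 CPM in LT-HSCs of AML1-ETO mice, against 22.4 to 82.1 in LT-HSCs of control mice (1.09 ± 0.41, adjusted p = 0.124). Without control replicate 1, its highest control, its adjusted p was 0.0154. Its relative Pfkfb4 had 11.7 to 31.9 CPM in LT-HSCs of AML1-ETO mice, against 7.999 to 25.0 in LT-HSCs of control mice.

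In lower glycolysis no gene was called in LT-HSCs either, although 3 members stood apart between the genotypes. Phosphoglycerate kinase, Pgk1 (chrX:106187100-106203699, plus strand), had 124, 109.9 and 131 CPM in LT-HSCs of AML1-ETO mice, against 152, 241, 257 and 209 CPM in LT-HSCs of control mice (−0.72 ± 0.20, adjusted p = 0.053). Phosphoglycerate mutase, Pgam1 (chr19:41911923-41918660, plus strand), was at the other side, with 72.9, 81.0 and 132 CPM in LT-HSCs of AML1-ETO mice, against 45.8, 60.4, 35.2 and 66.0 CPM in LT-HSCs of control mice (0.97 ± 0.29, adjusted p = 0.0638). The common enolase Eno1 had 169.5, 163 and 218 CPM in LT-HSCs of AML1-ETO mice, against 266, 367, 279.8 and 284 CPM in LT-HSCs of control mice (−0.61 ± 0.18, adjusted p = 0.0664). Adjacent enzymes of the chain therefore gave values of opposite sign in the same libraries. These 3, with Tpi1, Tkt and G6pdx, gave adjusted p-values of 0.00361 to 0.0402 under DESeq2. Pyruvate kinase, Pkm, gave a log2 fold change of −0.01 ± 0.22. Gapdh had 27.3 to 60.9 CPM in LT-HSCs of AML1-ETO mice, against 16.2 to 35.7 in LT-HSCs of control mice, but 43 near-identical genes, 41 of them pseudogenes, hold 46.6% of the combined counts of Gapdh and its copies, so its values are uncertain.

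Lactate handling held 2 of the 3 members that fell. Ldhb (chr6:142490249-142507957, minus strand), the subunit known for favouring lactate oxidation, had 0 counts in the 3 AML1-ETO LT-HSC libraries, against 54.5, 36.8, 6.36 and 16.9 CPM in LT-HSCs of control mice. Against a floor of 3 counts over the AML1-ETO group, which covers counting error only, its mean was at least 440-fold lower (adjusted p = 0.00699), and the call held with each library left out in turn. Slc16a1 (MCT1; chr3:104638668-104658462, plus strand), the common lactate transporter, had 31.8, 12.3 and 14.8 CPM in LT-HSCs of AML1-ETO mice, against 67.6, 104.5, 116 and 87.3 CPM in LT-HSCs of control mice. The groups stood well apart, and the level was 4.42-fold lower (−2.14 ± 0.38, adjusted p = 0.0108). Without AML1-ETO replicate 2 or 3 the adjusted p was 0.0648 and 0.0509. Slc16a3 (MCT4; chr11:120948480-120960868, plus strand), the lactate exporter of glycolytic cells, had 9.68, 11.2 and 19.3 CPM in LT-HSCs of AML1-ETO mice, against 6.13, 4.50, 9.38 and 5.64 CPM in LT-HSCs of control mice. All 3 AML1-ETO libraries exceeded the controls, though the lowest was close to the highest control (1.16 ± 0.58, adjusted p = 0.265). Ldha, the subunit that favours lactate formation, had 327 to 459 CPM in LT-HSCs of AML1-ETO mice, against 430.5 to 651 in LT-HSCs of control mice (−0.37 ± 0.20, adjusted p = 0.293).

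The genes of pyruvate entry gave log2 fold changes of −0.34 to 0.83 in LT-HSCs, with adjusted p-values of 0.212 to 0.832. They are the pyruvate dehydrogenase kinases Pdk1 and Pdk2, which switch the complex off, and Pdha1 and Pdhb, which encode its E1 subunits. Of the pentose phosphate enzymes, G6pdx (chrX:74409483-74429194, minus strand), the entry dehydrogenase, had 38.6, 34.7 and 44.8 CPM in LT-HSCs of AML1-ETO mice, against 57.0, 91.0, 67.8 and 72.7 CPM in LT-HSCs of control mice. The groups stood apart, with the adjusted p just over the threshold (−0.77 ± 0.22, adjusted p = 0.0556). The transketolase gene Tkt, of the branch that returns sugars to glycolysis, also stood apart, at 374 to 389.7 CPM in LT-HSCs of AML1-ETO mice, against 433 to 683 in LT-HSCs of control mice (−0.54 ± 0.19, adjusted p = 0.11). Its partner transaldolase, Taldo1, gave −0.53 ± 0.23 and the dehydrogenase Pgd 0.03 ± 0.21.

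Other lists moved in the same LT-HSC libraries. Of 20 cell cycle genes, 18 were lower in LT-HSCs of AML1-ETO mice, and their summed level was 1100 to 1300 CPM, against 2340 to 4840 CPM in LT-HSCs of control mice. All 11 of 12 mast cell and basophil markers that were tested were higher, at a summed 10400 to 13200 CPM in LT-HSCs of AML1-ETO mice, against 963 to 1380 CPM in LT-HSCs of control mice, where Mcpt4, Tpsab1 and Fcer1a were at 0. Of 10 B and plasma cell markers 6 were lower, at a summed 117 to 647 CPM in LT-HSCs of AML1-ETO mice, against 13100 to 77400 CPM in LT-HSCs of control mice. Of 10 erythroid markers 5 were lower, at a summed 448 to 533 CPM in the AML1-ETO LT-HSCs, against 1040 to 2710 CPM in the control LT-HSCs. Of the monocyte and macrophage, megakaryocyte, and T and NK cell markers, 2 of each list were lower and 0 higher. The part of all these lists in the values of the 32 genes was not tested.

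**Figure D1:**
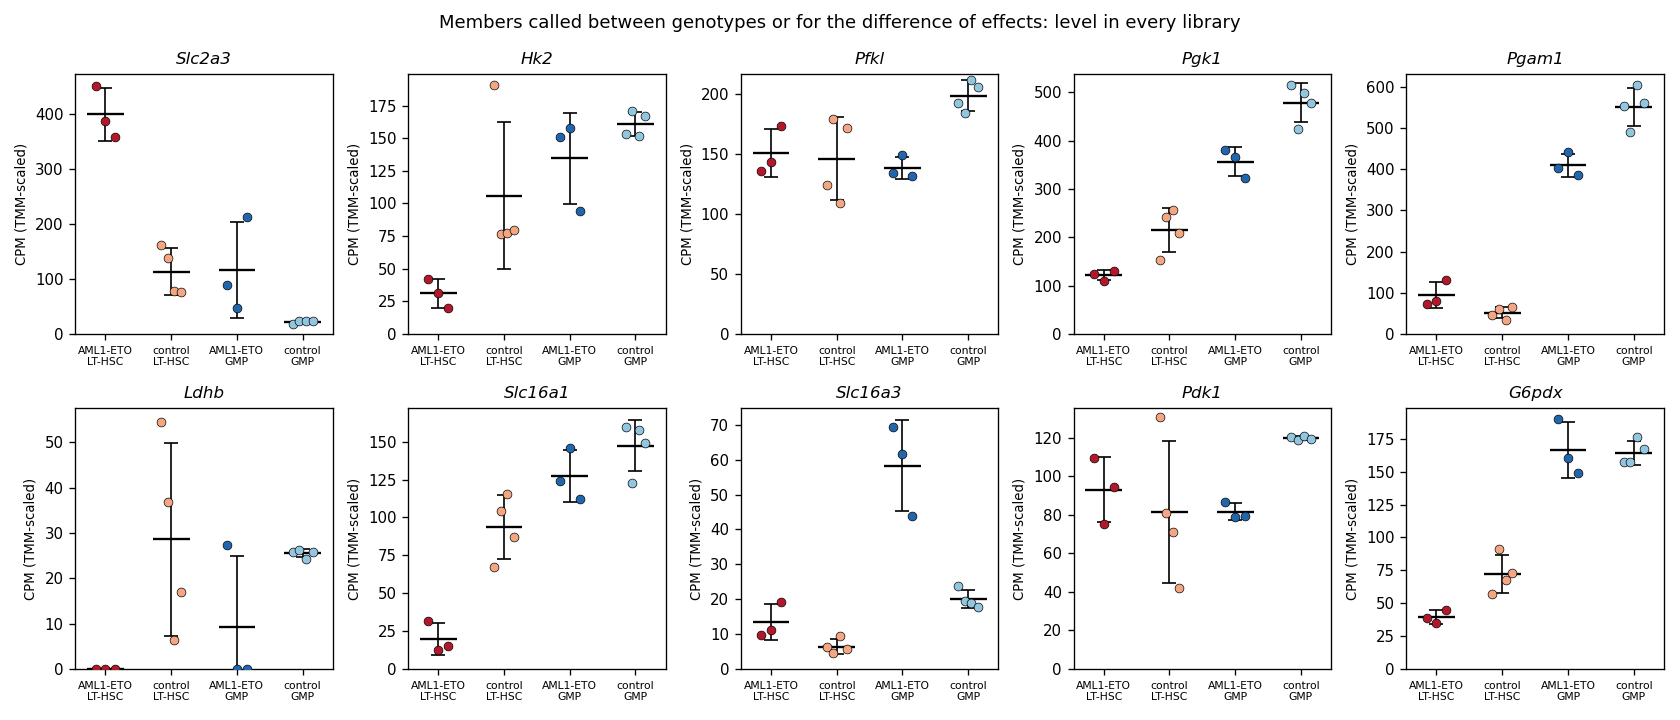
CPM (TMM-scaled, linear axes from 0) of the 10 members called between genotypes or for the difference of the genotype effects, in every library of the 4 groups. Points are libraries, wide bars the group means and whiskers the SD. Slc2a3 is higher in every AML1-ETO library of both cell types, Slc16a1 is low only in the AML1-ETO LT-HSCs, and Ldhb is at 0 in the 3 AML1-ETO LT-HSC libraries and in AML1-ETO GMP replicates 2 and 3.

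In GMPs, the glucose transporter Slc2a3 and the lactate exporter Slc16a3 were higher in AML1-ETO mice, and 4 enzymes of glycolysis and pyruvate entry, Pfkl, Pgk1, Pgam1 and Pdk1, were lower by modest amounts. That is 2 of 31 members tested higher (6.45%, against 5.47% of all 13981 genes tested) and 4 lower (12.9%, against 3.96%). The all-gene counts behind these shares, 765 higher and 554 lower, fell to 116 to 182 higher and 12 to 27 lower without any 1 of the control GMP replicates 1, 2, 3 and 4, and were 913 to 1550 higher and 959 to 1964 lower without any 1 of the AML1-ETO GMP replicates 1, 2 and 3. The median log2 fold change was 0.01 over the members and −0.03 over all genes tested. The groups did not overlap for 9 of the 31 members (29.0%), 3 higher and 6 lower, against 26.7% of all genes tested. Of the 9 members called in LT-HSCs or in GMPs, only Slc2a3 was called in both.

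Slc2a3 had 88.2, 47.1 and 213 CPM in GMPs of AML1-ETO mice, against 18.3, 23.4, 23.1 and 23.0 CPM in GMPs of control mice. All AML1-ETO libraries were above the controls, which were close together, but they spread widely, with replicate 3 highest. The log2 fold change was 2.42 ± 0.44 (adjusted p = 0.0208), a 5.36-fold higher level. It was 1.63 without AML1-ETO replicate 3, the library with the highest LT-HSC marker level, and the call was lost without any 1 of the 4 control libraries (adjusted p = 0.0704 to 0.0847). Slc2a1 had 48.5, 33.6 and 62.7 CPM in GMPs of AML1-ETO mice, against 30.2, 29.0, 25.3 and 28.3 CPM in GMPs of control mice. These groups also stood apart, with an adjusted p just over the threshold (0.79 ± 0.21, adjusted p = 0.057). The hexokinase genes were not called, at 0.45 ± 0.19 for Hk1, −0.24 ± 0.17 for Hk2 and 0.15 ± 0.19 for Hk3.

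In upper glycolysis Pfkl (chr10:77986947-78010083, minus strand), the liver-type phosphofructokinase subunit, had 134, 149 and 131 CPM in GMPs of AML1-ETO mice, against 192, 184, 212 and 206 CPM in GMPs of control mice. The groups stood apart, and the level was 1.42-fold lower (−0.51 ± 0.10, adjusted p = 0.022). Gpi1, at 864 to 1097 CPM in GMPs of AML1-ETO mice, against 1210 to 1270 in GMPs of control mice, and Tpi1, at 362 to 392 CPM in GMPs of AML1-ETO mice, against 431 to 501 in GMPs of control mice, also did not overlap, with adjusted p-values of 0.109 and 0.0672. The other subunits Pfkm and Pfkp, Aldoa, Pfkfb3 and Pfkfb4 gave log2 fold changes of 0.05 to 0.50, none called. Aldoc was at or under 2.16 CPM in every GMP library.

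In lower glycolysis Pgk1 had 381, 366 and 323 CPM in GMPs of AML1-ETO mice, against 514, 423, 498 and 478 CPM in GMPs of control mice (−0.41 ± 0.10, adjusted p = 0.0473). Pgam1 had 403, 441 and 386 CPM in GMPs of AML1-ETO mice, against 552.5, 490.2, 604 and 559.6 CPM in GMPs of control mice (−0.41 ± 0.10, adjusted p = 0.0403). In both genes the 3 AML1-ETO libraries lay below the 4 controls, and both levels were 1.33-fold lower. Eno1 was level between the genotypes at 0.01 ± 0.14, and Pkm gave −0.33 ± 0.12 (adjusted p = 0.149). Gapdh ranged from 26.6 to 268 CPM in GMPs of AML1-ETO mice, against 39.5 to 206 CPM in GMPs of control mice.

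Slc16a3 had 69.5, 61.5 and 43.9 CPM in GMPs of AML1-ETO mice, against 23.7, 19.4, 18.96 and 17.9 CPM in GMPs of control mice. The groups were far apart compared with their spread, and the level was 2.95-fold higher (1.56 ± 0.20, adjusted p = 0.007). The call held with each library left out in turn, at an adjusted p of up to 0.0413. Ldhb had 27.4, 0 and 0 CPM in GMPs of AML1-ETO mice, against 25.7, 26.3, 24.2 and 25.7 CPM in GMPs of control mice. AML1-ETO replicate 1, the library with the highest neutrophil and erythroid markers, stood at the control level, and the other two had 0 counts. The test was not passed (adjusted p = 0.63), but without that library the adjusted p was 0.00045. Slc16a1 had 124, 146 and 112.5 CPM in GMPs of AML1-ETO mice, against 159.6, 123, 158 and 149 CPM in GMPs of control mice, and overlapped (−0.19 ± 0.13, adjusted p = 0.439). Ldha gave −0.12 ± 0.15.

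The pyruvate dehydrogenase kinase gene Pdk1 (chr2:71873224-71903858, plus strand) had 86.6, 78.7 and 79.6 CPM in GMPs of AML1-ETO mice, against 121, 119, 121 and 119 CPM in GMPs of control mice. Both groups were tight and did not overlap, with a level 1.45-fold lower (−0.54 ± 0.09, adjusted p = 0.0159). Pdk2, Pdha1 and Pdhb overlapped, with log2 fold changes of −0.11 to 0.50. The 4 pentose phosphate genes also overlapped, with log2 fold changes of −0.19 to 0.08. The calls of Pfkl and Pdk1 were lost without any 1 of the 4 control libraries (adjusted p = 0.0623 to 0.0872 for Pfkl and 0.0643 to 0.0778 for Pdk1), that of Pgk1 also without AML1-ETO replicate 3, and that of Pgam1 also without AML1-ETO replicate 1 or 3 (0.0695 to 0.167 for Pgk1 and 0.0519 to 0.136 for Pgam1). Without a control library most calls over all genes were lost as well, as given above, and the log2 fold changes stayed at −0.54 to −0.47 for Pfkl and −0.54 to −0.53 for Pdk1. With all 14 samples in 1 fit, which shares the wider spread of the LT-HSCs, none of these 4 was called (0.136 to 0.377) and 64 of 16116 genes were called lower, while 4 of the 31 members had an unadjusted p under 0.05 and were lower, and all 4 calls held under DESeq2.

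In the same GMP libraries 7 of 12 mast cell and basophil markers were higher and 1 lower, at a summed 2010 to 3180 CPM in GMPs of AML1-ETO mice, against 881 to 1040 CPM in GMPs of control mice, where Mcpt4, Tpsb2 and Tpsab1 were at 0. Of 9 neutrophil markers 4 were higher, at a summed 598 to 3630 CPM in GMPs of AML1-ETO mice, against 56.0 to 79.2 CPM in GMPs of control mice. Of 20 cell cycle genes 1 was higher and 5 were lower, at a summed 4660 to 5710 CPM in GMPs of AML1-ETO mice, against 5910 to 6370 CPM in GMPs of control mice. Of 10 LT-HSC markers 4 were higher and 0 lower. Of 8 monocyte and macrophage markers 4 were higher and 0 lower, and of 10 erythroid markers 3 and 0. Of 10 GMP markers 0 were higher and 1 was lower. Of 3 B and plasma cell markers tested 1 was lower, and the 1 stromal and endothelial marker tested was higher. The part of all these lists in the values above was not tested.

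**Figure D2:**
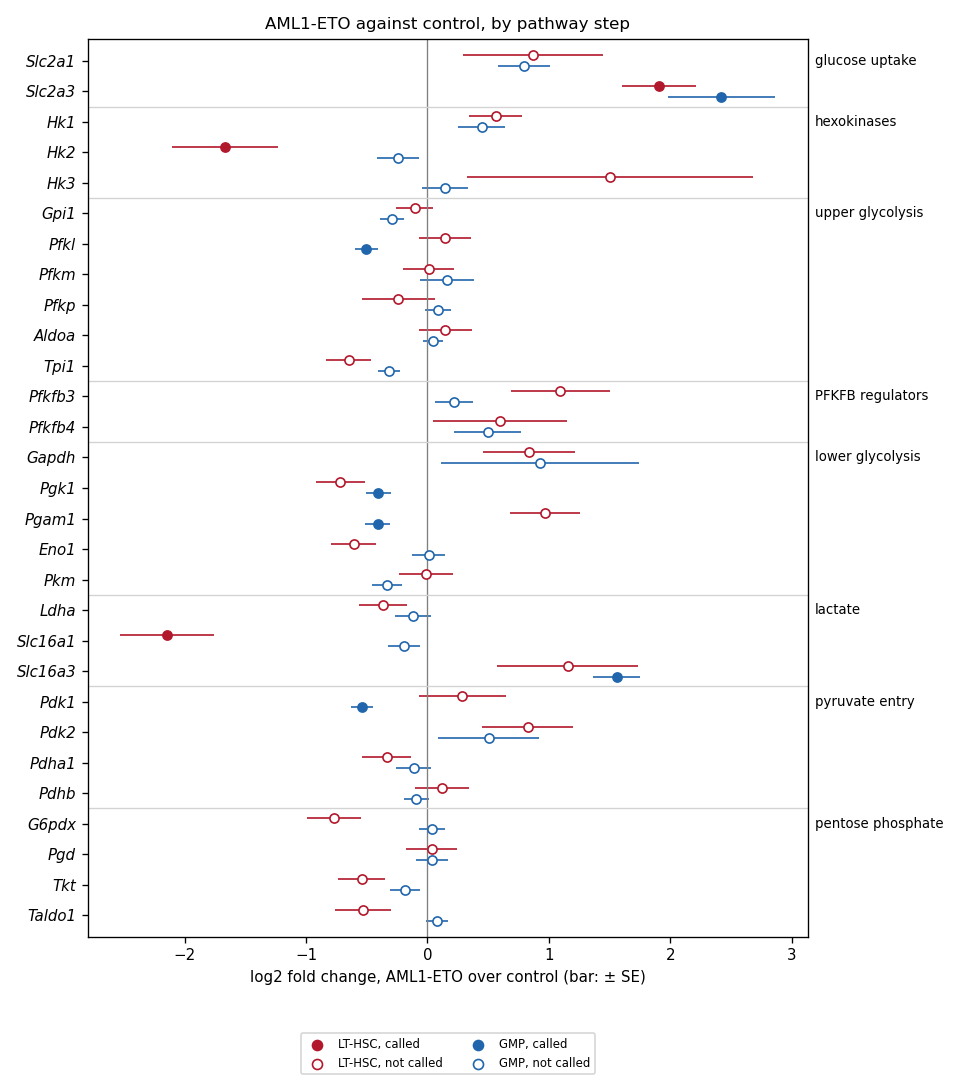
Log2 fold change of AML1-ETO over control (horizontal axis, bars ± SE) for 29 members ordered by step, in LT-HSCs (red) and GMPs (blue). Filled points are called at an adjusted p under 0.05. Eno2 (not tested), Ldhb (0 counts in a group) and Aldoc (under 13 CPM throughout) are left out. Slc2a3 lies far to the right in both cell types, Slc16a1 and Hk2 lie far to the left in LT-HSCs, and the 4 genes that fell in GMPs lie between −0.54 and −0.41.

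Whether the genotype effect differed between GMPs and LT-HSCs was tested as an interaction over all 14 samples. Of 31 members, 2 were called with a more positive effect in GMPs, Slc16a1 and G6pdx (6.45%, against 3.43% of all 16116 genes tested), and 1 with a more negative effect, Pgam1 (3.23%, against 2.91%). For the lactate transporter Slc16a1 the effect in GMPs minus that in LT-HSCs was 2.05 ± 0.40 on the log2 scale (adjusted p = 0.00876), and this call held with each of the 14 libraries left out in turn. For Pgam1 it was −1.31 ± 0.32 (adjusted p = 0.026), since its AML1-ETO level was below control in GMPs and above control in LT-HSCs. For G6pdx it was 0.89 ± 0.23 (adjusted p = 0.0366), with 190.4, 160.2 and 149 CPM in GMPs of AML1-ETO mice, against 157, 157, 176 and 167 CPM in GMPs of control mice. The Pgam1 call was lost without AML1-ETO LT-HSC replicate 3, AML1-ETO GMP replicate 1 or 3 or control GMP replicate 1, 3 or 4 (adjusted p = 0.054 to 0.0698), and the G6pdx call without AML1-ETO LT-HSC replicate 1 or 2, AML1-ETO GMP replicate 1 or any 1 control GMP library (0.0613 to 0.126). Slc2a3 gave 0.59 ± 0.55 (adjusted p = 0.644), so its rise was not shown to differ between the cell types. Hk2 gave 1.5 ± 0.47 (adjusted p = 0.0737), and Slc16a3 gave 0.48 ± 0.47 (adjusted p = 0.663). In this test 16 of the 20 cell cycle genes had a more positive effect in GMPs, and their part in these values was not tested.

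In both genotypes GMPs had more RNA for most enzymes of glycolysis and for all 4 pentose phosphate enzymes than LT-HSCs, and less for the transporter Slc2a3, the hexokinase Hk1, the muscle-type subunit Pfkm and the kinase Pdk2. In AML1-ETO mice 18 of 31 members were higher in GMPs (58.1%, against 12.6% of all 16116 genes tested) and 4 were lower (12.9%, against 9.15%). In control mice 18 were higher (58.1%, against 13.9%) and 4 were lower (12.9%, against 10.6%). The median log2 fold change of the members was 1.39 in AML1-ETO mice, and also with Ldhb at its bound, and 0.97 in control mice, against 0.00 and 0.02 over all genes tested. Over all genes 2031 were called higher and 1474 lower in AML1-ETO mice, and with DESeq2 2100 and 2187 and with upper-quartile scaling 1670 and 1770. In control mice 2247 were called higher and 1702 lower, and with DESeq2 1831 and 2676 and with upper-quartile scaling 1782 and 1980. Of the 22 members called in each genotype, 19 were called in the same direction in both, 15 higher and 4 lower. Hk2, Ldhb and Slc16a1 were called in AML1-ETO mice and not in control mice, and Hk3, Pfkfb3 and Pdhb in control mice and not in AML1-ETO mice; of these 6, the difference itself was called for Slc16a1. With the samples of 1 genotype only, Slc16a1 was also called in control mice (0.61, adjusted p = 0.0284, and 0.0168 in the 14-sample fit without AML1-ETO LT-HSC replicate 1), and Hk3 in AML1-ETO mice (2.36, adjusted p = 0.0023). These comparisons use the same libraries as those between the genotypes. As a share of all counts, the 32 genes together made up 1.03 ± 0.0467% in AML1-ETO GMPs, 0.476 ± 0.0326% in AML1-ETO LT-HSCs, 1.13 ± 0.0393% in GMPs of control mice and 0.56 ± 0.0254% in LT-HSCs of control mice (SD, n = 3, 3, 4 and 4), a description without a test.

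Of the glucose transporters, Slc2a3 was lower in GMPs at −1.78 ± 0.43 in AML1-ETO mice (adjusted p = 0.00883) and −2.37 ± 0.38 in control mice (adjusted p = 0.000569), a 3.43-fold and 5.17-fold lower level. Slc2a1 was level between the cell types, at −0.01 ± 0.50 in AML1-ETO mice and 0.00 ± 0.43 in control mice. Of the hexokinases, Hk3 had 711, 1099 and 631 CPM in GMPs of AML1-ETO mice, against 171, 163 and 129 CPM in LT-HSCs of AML1-ETO mice, and 716, 754, 659 and 847 CPM in GMPs of control mice, against 89.6, 105, 0 and 37.7 CPM in LT-HSCs of control mice. GMP libraries lay above LT-HSC libraries in both genotypes, and the test was passed in control mice (3.68 ± 0.92, adjusted p = 0.00998) and not in AML1-ETO mice (2.40 ± 0.999, adjusted p = 0.102). Without control LT-HSC replicate 3, where Hk3 was at 0 counts, the adjusted p in AML1-ETO mice was 0.000144. Hk2 was higher in GMPs at 2.10 ± 0.36 in AML1-ETO mice (adjusted p = 0.000994), with 151, 158 and 94.5 CPM in AML1-ETO GMPs and 153, 170.5, 152 and 167 CPM in GMPs of control mice, against 0.60 ± 0.30 in control mice (adjusted p = 0.168, and 0.00684 without control LT-HSC replicate 1). Hk1 was lower by modest amounts, at −0.77 ± 0.23 in AML1-ETO mice (adjusted p = 0.0288) and −0.74 ± 0.20 in control mice (adjusted p = 0.0164), and its call in AML1-ETO mice was lost without any 1 AML1-ETO LT-HSC library or AML1-ETO GMP replicate 1 or 2 (0.0527 to 0.121).

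In upper glycolysis Pfkp, the platelet-type subunit, had 165, 196 and 157 CPM in GMPs of AML1-ETO mice, against 56.6, 35.6 and 51.6 CPM in LT-HSCs of AML1-ETO mice, and 157, 160.5, 161 and 179 CPM in GMPs of control mice, against 66.6, 65.3, 36.5 and 73.9 CPM in LT-HSCs of control mice. All GMP libraries were above all LT-HSC libraries, by 1.85 ± 0.24 in AML1-ETO mice (adjusted p = 0.00012) and 1.44 ± 0.21 in control mice (adjusted p = 0.000229). Pfkm went the other way, at −1.54 ± 0.23 in AML1-ETO mice and −1.77 ± 0.20 in control mice (adjusted p = 0.000379 and 4.46e-05), and Pfkl was not called in either genotype. Gpi1, Aldoa and Tpi1 were higher in GMPs in both genotypes, with log2 fold changes of 0.97 to 1.62. Pfkfb3 had 149.6, 196 and 122 CPM in GMPs of AML1-ETO mice, against 83.7, 81.2 and 108 CPM in LT-HSCs of AML1-ETO mice, and 135, 131, 129 and 148 CPM in GMPs of control mice, against 82.1, 37.2, 22.4 and 38.9 CPM in LT-HSCs of control mice. Its GMP libraries stood above in both genotypes, and it was called in control mice (1.58 ± 0.30, adjusted p = 0.00189) and not in AML1-ETO mice (0.78 ± 0.34, adjusted p = 0.123, and 0.0235 and 0.0481 without control LT-HSC replicate 1 or 3).

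Pgam1 had one of the largest cell type differences, at 2.10 ± 0.25 in AML1-ETO mice (adjusted p = 6.17e-05) and 3.41 ± 0.23 in control mice (adjusted p = 7.75e-07), a 4.30-fold and 10.6-fold higher level in GMPs. Eno1 had 768, 921 and 647 CPM in GMPs of AML1-ETO mice, against 169.5, 163 and 218 CPM in LT-HSCs of AML1-ETO mice, and 829.6, 688, 846 and 764 CPM in GMPs of control mice, against 266, 367, 279.8 and 284 CPM in LT-HSCs of control mice. The cell types did not overlap, at 2.09 ± 0.18 in AML1-ETO mice (adjusted p = 8.87e-06) and 1.39 ± 0.16 in control mice (adjusted p = 3.71e-05). Pgk1 and Pkm were also higher in GMPs in both genotypes, with log2 fold changes of 1.15 to 1.59, while Gapdh gave 1.80 ± 0.74 in AML1-ETO mice and 1.61 ± 0.64 in control mice and was not called.

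For lactate handling, Slc16a3 was higher in GMPs at 2.12 ± 0.37 in AML1-ETO mice (adjusted p = 0.000964) and 1.64 ± 0.31 in control mice (adjusted p = 0.0019). Slc16a1 was 6.49-fold higher in GMPs of AML1-ETO mice (2.70 ± 0.32, adjusted p = 5.51e-05), against 0.65 ± 0.26 in control mice (adjusted p = 0.0774). Ldha had 612, 618 and 820.5 CPM in GMPs of AML1-ETO mice, against 376, 327 and 459 CPM in LT-HSCs of AML1-ETO mice, and 828, 646, 844.5 and 690.4 CPM in GMPs of control mice, against 430.5, 651, 524 and 535 CPM in LT-HSCs of control mice. Its GMP libraries lay above in AML1-ETO mice (0.82 ± 0.19, adjusted p = 0.00724) and overlapped in control mice (0.49 ± 0.17, adjusted p = 0.0429). Ldhb was called higher in AML1-ETO GMPs than in AML1-ETO LT-HSCs (adjusted p = 0.0252), with a mean at least 141-fold above the floor of 3 counts over the LT-HSC group, but this rests on AML1-ETO GMP replicate 1. Without that library every remaining library of both groups was at 0 counts (adjusted p = 1), and the adjusted p was 0.0722 to 0.0769 without any 1 AML1-ETO LT-HSC library.

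Of the genes of pyruvate entry, Pdk2 had 5.85, 9.75 and 17.3 CPM in GMPs of AML1-ETO mice, against 29.5, 50.4 and 45.0 CPM in LT-HSCs of AML1-ETO mice, and 8.03, 9.80, 5.97 and 7.57 CPM in GMPs of control mice, against 40.3, 17.9, 23.6 and 17.8 CPM in LT-HSCs of control mice. The cell types did not overlap, at −1.92 ± 0.45 in AML1-ETO mice (adjusted p = 0.00741) and −1.66 ± 0.39 in control mice (adjusted p = 0.00699). Pdk1 was not called in either genotype. Pdha1 was higher in GMPs at 0.84 ± 0.19 in AML1-ETO mice (adjusted p = 0.006) and 0.53 ± 0.16 in control mice (adjusted p = 0.0297), and Pdhb gave 0.38 ± 0.18 in AML1-ETO mice (adjusted p = 0.16) and 0.50 ± 0.16 in control mice (adjusted p = 0.0317). In control mice the calls of Ldha, Pdha1 and Pdhb were lost under DESeq2 (0.0918, 0.0773 and 0.142) and with upper-quartile scaling (0.106, 0.079 and 0.0987). All 3 calls were lost without control LT-HSC replicate 3 or control GMP replicate 1, 3 or 4. In addition, Ldha was lost without control LT-HSC replicate 1 or 4, Pdha1 without control LT-HSC replicate 1 or control GMP replicate 2, and Pdhb without control LT-HSC replicate 2 or 4 or control GMP replicate 2 (0.0551 to 0.129 over all of these).

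The pentose phosphate branch was higher in GMPs throughout. Pgd, the dehydrogenase that yields ribulose phosphate, had 624, 509.8 and 445 CPM in GMPs of AML1-ETO mice, against 118, 125 and 117 CPM in LT-HSCs of AML1-ETO mice, and 563, 466.5, 494 and 551.5 CPM in GMPs of control mice, against 98.7, 114.5, 173 and 118 CPM in LT-HSCs of control mice. Every GMP library was more than 2 times any LT-HSC library, at 2.13 ± 0.20 in AML1-ETO mice (adjusted p = 1.23e-05) and 2.04 ± 0.17 in control mice (adjusted p = 3.84e-06). G6pdx gave 2.08 ± 0.18 in AML1-ETO mice and 1.19 ± 0.16 in control mice (adjusted p = 8.87e-06 and 0.00011). Tkt gave 1.75 ± 0.18 and Taldo1 1.91 ± 0.20 in AML1-ETO mice, and Tkt gave 1.31 ± 0.16 and Taldo1 1.21 ± 0.17 in control mice, all called. Of 20 cell cycle genes, 19 were higher in GMPs of AML1-ETO mice and 13 in GMPs of control mice, and their part in these differences was not tested.

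**Figure D3:**
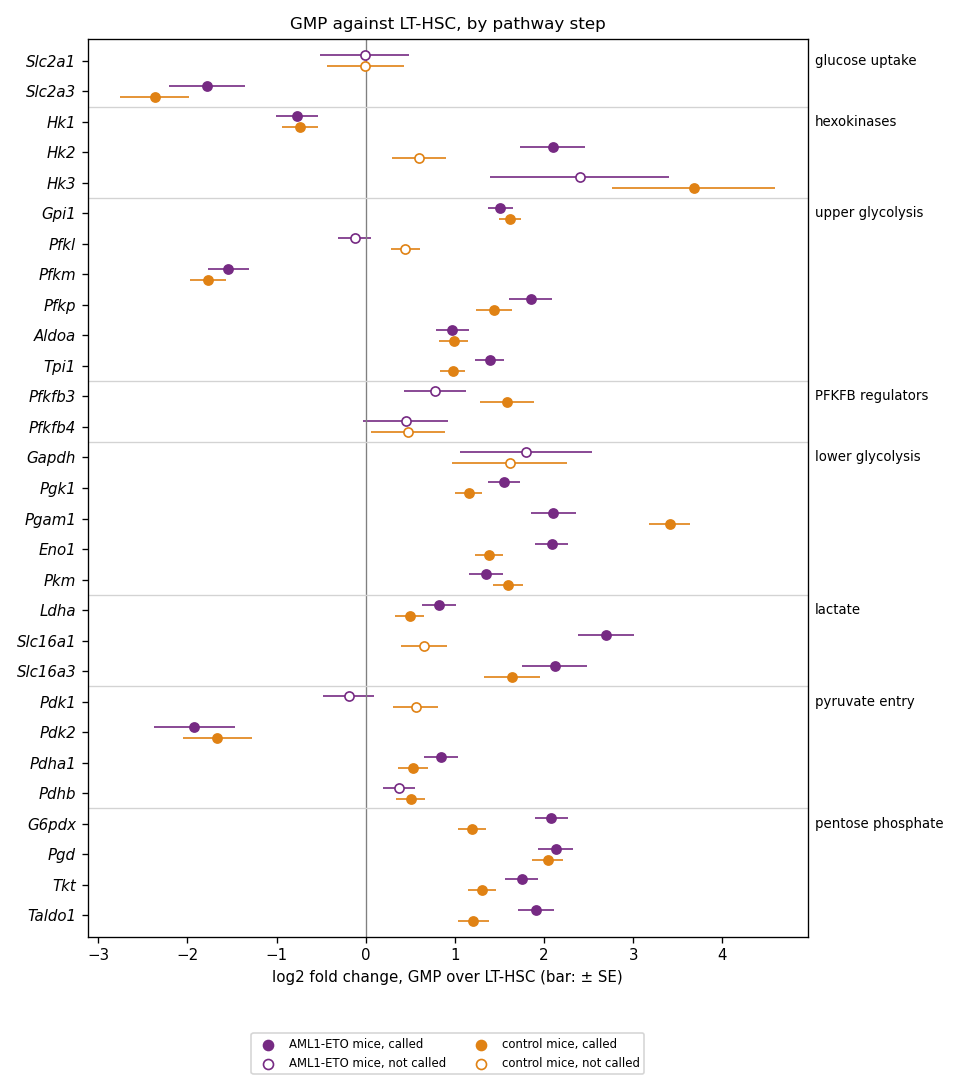
Log2 fold change of GMP over LT-HSC (horizontal axis, bars ± SE) for 29 members ordered by step, in AML1-ETO mice (purple) and control mice (orange). Filled points are called at an adjusted p under 0.05. Eno2, Ldhb and Aldoc are left out. The 4 pentose phosphate genes lie between 1.19 and 2.13 in both genotypes, while Slc2a3, Hk1, Pfkm and Pdk2 lie to the left of 0.

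Related genes were set side by side as CPM per kb of merged exons (GENCODE M21), as levels without a test. Slc2a3 had 55.0 ± 6.55 CPM per kb in LT-HSCs of AML1-ETO mice, against 15.7 ± 6 in LT-HSCs of control mice, and 16 ± 11.9 in GMPs of AML1-ETO mice, against 3.03 ± 0.337 in GMPs of control mice (SD, n = 3, 4, 3 and 4, as for the shares that follow). It made up 79.7 ± 2.93% of the Slc2a1 and Slc2a3 level in LT-HSCs of AML1-ETO mice, against 69.4 ± 10.1% in LT-HSCs of control mice, and 49.8 ± 11.2% in GMPs of AML1-ETO mice, against 27.4 ± 3.37% in GMPs of control mice. Slc2a1 was thus the larger of the pair in GMPs of control mice and the smaller in LT-HSCs of both genotypes. Hk3 made up 37.2 ± 4.82% of the hexokinase level in LT-HSCs of AML1-ETO mice, against 18.1 ± 15% in LT-HSCs of control mice, and 77.8 ± 4.31% in GMPs of AML1-ETO mice, against 78.4 ± 0.958% in GMPs of control mice. Hk1 was the largest hexokinase in LT-HSCs, at 65.3 ± 6.18 CPM per kb in LT-HSCs of AML1-ETO mice, against 47.4 ± 11.7 in LT-HSCs of control mice, and Hk3 in GMPs, at 221 ± 68.1 CPM per kb in GMPs of AML1-ETO mice, against 202 ± 21.4 in GMPs of control mice. Pfkp made up 6.42 ± 1.52% of the phosphofructokinase level in LT-HSCs of AML1-ETO mice, against 7.72 ± 0.947% in LT-HSCs of control mice, and 29.5 ± 3.51% in GMPs of AML1-ETO mice, against 23.9 ± 0.703% in GMPs of control mice. Pfkm had 29.6 ± 0.876 CPM per kb in LT-HSCs of AML1-ETO mice, against 31.4 ± 6.32 in LT-HSCs of control mice, and 10.2 ± 3.16 in GMPs of AML1-ETO mice, against 9.22 ± 0.915 in GMPs of control mice. With the longest transcript as the length, Hk3 made up 26.1% of the hexokinase level in LT-HSCs of AML1-ETO mice, against 13.4% in LT-HSCs of control mice, and 70.9% in GMPs of AML1-ETO mice, against 72.8% in GMPs of control mice.

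**Figure D4:**
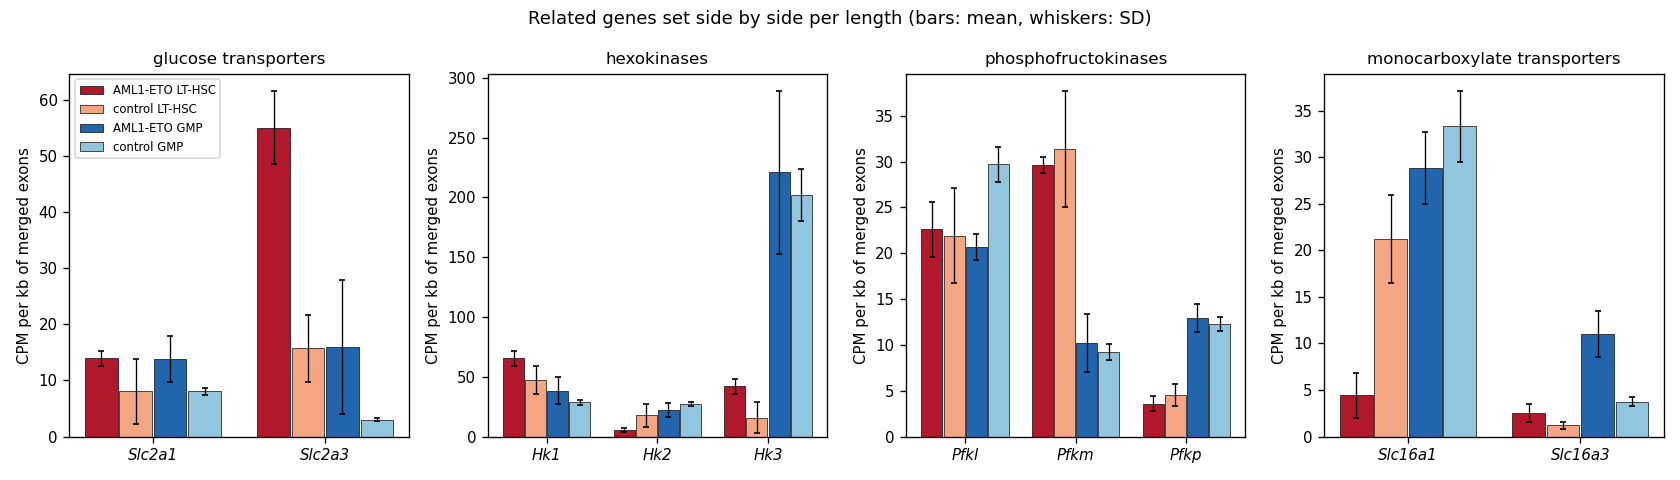
Mean CPM per kb of merged exons (bars from 0, whiskers SD) of the glucose transporter, hexokinase, phosphofructokinase and monocarboxylate transporter genes in the 4 groups. Slc2a3 is tallest in AML1-ETO LT-HSCs at 55.0 CPM per kb, Hk3 is far taller in GMPs than in LT-HSCs, and Slc16a1 is lowest in AML1-ETO LT-HSCs at 4.43 ± 2.40 CPM per kb.

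Of 56 further genes of glucose metabolism, such as other transporters, gluconeogenic enzymes and subunits of the pyruvate dehydrogenase complex, 42 were tested in each genotype comparison. In LT-HSCs 3 of the 42 were lower in AML1-ETO mice and 0 higher, where 4.69% of all genes tested were lower and 7.59% higher. The 3 were the sugar transporter Slc2a8 (−2.19 ± 0.55), the liver and red cell pyruvate kinase Pklr (−5.01 ± 1.18) and pyruvate carboxylase, Pcx (−3.18 ± 0.87), with adjusted p-values of 0.0382, 0.0304 and 0.0484. In the same libraries the erythroid marker Klf1 had 2.69 to 5.87 CPM in the AML1-ETO LT-HSCs, against 44.3 to 122 CPM in the control LT-HSCs, and Car1 had 1.38 to 8.87 CPM in the AML1-ETO LT-HSCs, against 196 to 1070 CPM in the control LT-HSCs. Their part in the Pklr value was not tested. In GMPs 3 were higher, the urate and sugar transporter Slc2a9 (1.12 ± 0.27), the gluconeogenic Fbp1 (1.85 ± 0.47) and the glycerol phosphate dehydrogenase Gpd1 (3.15 ± 0.54), with adjusted p-values of 0.0408, 0.0456 and 0.018. In GMPs 2 were lower, Pdpr, a regulator of pyruvate dehydrogenase phosphatase (−0.75 ± 0.18), and Dlat, the E2 subunit of pyruvate dehydrogenase (−0.62 ± 0.13), with adjusted p-values of 0.038 and 0.0259. Over all genes tested between genotypes in GMPs, 5.47% were higher and 3.96% lower. Of 43 further genes tested between the cell types, 10 were higher and 3 lower in GMPs of AML1-ETO mice, and 10 were higher and 4 lower in GMPs of control mice. Over all genes tested, the shares higher and lower were 12.6% and 9.15% in AML1-ETO mice and 13.9% and 10.6% in control mice.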

How the data were processed

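RNA-seq libraries of LT-HSCs and GMPs were compared in 14 samples. The authors deposited raw counts per gene symbol, whole numbers that are not normalised. HISAT2 2.0.5, featureCounts 1.5.0-p3 and mm10 are named per the submitters' processing notes. More than 1 library kit is listed per the labels' protocols, without saying which served which library. Strand setting and annotation release were not given in the sources used here. Overlapping or antisense genes may share reads. Aldoa is listed on 2 lines (the first, with nearly all counts, was used). Counts were filtered with filterByExpr, scaled by TMM and tested with the two-sided quasi-likelihood test of edgeR 4.0.16 (R 4.3.3), Benjamini-Hochberg adjusted over all genes tested. Each genotype comparison used the 7 samples of a cell type (5 residual degrees of freedom). Cell type comparisons and the interaction used 1 fit of 14 samples (10 degrees). The SE is the log2 fold change over the square root of F. Replicates differed by far more than counting noise (chi-square per gene 9.20 to 216). The value was 9.20 to 15.9 among control GMP libraries, against 106 to 113 among AML1-ETO GMP libraries. Among AML1-ETO LT-HSC libraries it was 35 to 75.7, against 86.6 to 216 among control LT-HSC libraries. The genotype comparison in GMPs thus pooled groups of very unequal spread. Alternatives were DESeq2 1.42.0, upper-quartile scaling, no filter, other sets of samples, a replicate block, each library left out and transcript length. Simulated data were run through the same fits, but with a spread set below the common spread fitted to these libraries. That run cannot support the calls. Members called between genotypes, or for the interaction, are given in every sample, as is the largest change of each step among the rest called between cell types. Other pathway genes are named where called between genotypes with a mean of at least 20 counts. The members and lists were chosen with earlier results of these data known.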

Additional observations from a re-analysis of the deposited data

Results flagged for a closer look

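In control LT-HSCs, Hk2 stood at 190.9 CPM in replicate 1, with the other three at 76.25 to 79.56 CPM. In control GMPs, Slc2a3 stood at 18.31 CPM in replicate 1, with the others at 23.04 to 23.37 CPM, and Gapdh at 205.7 CPM in replicate 1, with the others at 39.55 to 52.98 CPM. These 3 were the groups with a library far from the rest among 64 groups of 4 control libraries examined, and chance alone sets apart about 1 in 20 groups. Gapdh shares reads with near-identical genes.

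The genotype effect in GMPs minus that in LT-HSCs differed for 3 members in the interaction test, with log2 values of 2.045 for Slc16a1, 0.891 for G6pdx and −1.307 for Pgam1. Leaving out 1 library in turn ended the call for G6pdx in 7 of 14 cases and for Pgam1 in 6 of 14, and for Slc16a1 in none of the 14.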

How the results depend on the processing

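Over the alternatives, 2230 of 2478 recomputed log2 fold changes of members kept both direction and side of the threshold, 97 lost the call, 61 gained it, 89 changed sign without being called either way and 1 ended at 0 (Ldhb between cell types in AML1-ETO mice, 0 without AML1-ETO GMP replicate 1 and up to 10.79 without 1 other library, a fitted value that depends on the prior count). The 2478 include members that were not called. Of the 97 lost calls, 35 were between genotypes in GMPs, where 6 members were called, and 8 in LT-HSCs, where 4 were. For the difference 16 were lost, with 3 members called. Between cell types 30 were lost in control mice and 8 in AML1-ETO mice, with 22 called in each. In LT-HSCs, against 1 member higher and 3 lower, DESeq2 called 2 and 8, upper-quartile scaling 7 lower, and 1 fit of all 14 samples 4 and 9. Over all genes these 3 settings called 1322 and 1483, 912 and 853, and 1669 and 1497. Leaving out 1 library gave 1 to 3 higher and 1 to 7 lower, while the calls over all genes ran from 223 to 1373 higher and 111 to 1003 lower (1107 and 684 with every library). In GMPs, against 2 higher and 4 lower, 2 were lower with no filter and 0 with all samples in 1 fit. Over all genes 260 and 64 were lower under these 2 settings. Leaving out 1 library gave 1 to 3 higher and 0 to 6 lower, while the calls over all genes ran from 116 to 1550 higher and 12 to 1964 lower (765 and 554 with every library), so these member counts move with the background. For the difference between cell types, against 2 higher and 1 lower, DESeq2 called 6 higher and no filter 1 higher, and leaving out 1 library gave 1 to 3 higher and 0 to 3 lower, with 235 to 735 higher and 236 to 742 lower over all genes. Over all genes, DESeq2 called 1090 higher for this difference and no filter 502, against 552 in the main test. Between cell types the calls without 1 library were 17 to 20 higher and 3 to 4 lower in AML1-ETO mice and 15 to 19 higher and 4 lower in control mice. Over all genes the same reruns gave 1294 to 2498 higher and 798 to 2079 lower in AML1-ETO mice. In control mice they gave 1505 to 2498 higher and 1103 to 2092 lower over all genes. With the longest transcript, the Hk3 share of its family was 26.1% in AML1-ETO LT-HSCs, 70.9% in AML1-ETO GMPs and 72.8% in control GMPs, and the Pfkp share in control GMPs was 22.9%. Over all genes, the median log2 fold change moved by over 0.1 with upper-quartile scaling in LT-HSCs (−0.10, against 0.03), and between cell types with DESeq2 and upper-quartile scaling in AML1-ETO mice (−0.10 and −0.11, against 0) and in control mice (−0.12 and −0.08, against 0.02). The replicate block moved it by 0.18 in LT-HSCs, −0.10 in GMPs, −0.29 for the difference, −0.13 between cell types in AML1-ETO mice and 0.29 in control mice. The share of higher genes among all calls was 61.8% in LT-HSCs, 47.1% with DESeq2 and 51.7% with upper-quartile scaling, and between cell types in control mice 56.9% and 40.6% with DESeq2. Except where built into the alternative, as with fewer samples, the cause was not tested.

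Replicate numbers were not taken as pairing. Same-numbered libraries of the 2 genotypes had correlations of −0.08 to −0.05 in LT-HSCs and 0.01 to 0.04 in GMPs, and those of the 2 cell types 0.09 to 0.16 in AML1-ETO mice (3 of 3 samples correlated best with their own number) and −0.04 to 0.02 in control mice (0 of 4). With a replicate block, edgeR called 0 members higher and 0 lower in GMPs, where 3 and 7 had an unadjusted p under 0.05 and DESeq2 without the block called 3 higher and 6 lower, and 0 members with a more negative effect in GMPs, where 3 had an unadjusted p under 0.05. Over all genes in GMPs, the block left 107 higher and 5 lower of 13981, so 0 of 31 members lower is no result about the members. For the difference, the block left 300 higher and 208 lower of 16116 genes, so 0 members with a more negative effect is no result about them either. With the block the adjusted p was 0.0625 for Slc16a1 in LT-HSCs and 0.126 for G6pdx in the difference. In the genotype comparisons the block matched same-numbered libraries of the 2 genotypes, which come from different mice. For the difference it matched same-numbered libraries of the 2 cell types within a genotype. Both blocks leave fewer residual degrees of freedom. Genes with wide spread between LT-HSC libraries, such as Hk3, limit what these groups can show.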

Other observations

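Among 17 regulators of this pathway, a list of HIF and MYC family genes and their partners, 15 were tested in LT-HSCs and 14 in GMPs. In LT-HSCs 2 were called higher and 2 lower, against 7.59% and 4.69% of all genes tested, and 11 were not called. In GMPs 2 were called higher and 2 lower, against 5.47% and 3.96% of all genes tested, and 10 were not called. Hif1a was not among those called. These regulator calls were not rerun with a library left out. In LT-HSCs Egln1, a prolyl hydroxylase that marks HIF for decay, was higher at a mean 48.5 CPM in AML1-ETO mice, against 26.2 CPM in control mice (log2 fold change 0.99, adjusted p = 0.0371). The glucose-sensing transcription factor gene Mlxip was also higher in LT-HSCs, at 294 CPM in AML1-ETO mice, against 114.5 CPM in control mice (1.45, adjusted p = 0.0205). Lower in LT-HSCs were the HIF hydroxylase and HIF target Egln3 (−3.28, adjusted p = 0.0232) and Mycn (−7.20, adjusted p = 0.00694). Mycn averaged 0.550 CPM in AML1-ETO mice, against 89.3 CPM in control mice.

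In GMPs Txnip, which restrains glucose uptake and is induced by glucose, was higher at 353 CPM in AML1-ETO mice, against 71.0 CPM in control mice (2.33, adjusted p = 0.0171), and so was the MYC antagonist Mxi1 (0.89, adjusted p = 0.0107). Txnip had 249, 187 and 623 CPM in AML1-ETO GMPs, against 60.7 to 90.9 CPM in control GMPs. The 623 was in replicate 3, the AML1-ETO GMP library with the highest LT-HSC marker level, and LT-HSC libraries had 172 to 1000 CPM of Txnip. Myc was lower at 205 CPM in AML1-ETO mice, against 448 CPM in control mice (−1.11, adjusted p = 0.0179). Egln3 was lower at 28.7 CPM in AML1-ETO mice, against 74.9 CPM in control mice (−1.36, adjusted p = 0.00287), and was the regulator called in both cell types. Over all genes in GMPs, 554 were called lower, and only 12 to 27 without any 1 control GMP library.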
